A study of Mus musculus with 12 samples.

Results

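The monoamine synthesis and transport genes described here are Th, Ddc, Slc6a3, Slc18a2, Tph2, Slc6a4, Dbh and Slc6a2, together with the degradation genes Maoa and Maob. They were chosen by name, as the rows of the count tables whose Ensembl identifiers map to these 10 genes, out of 55401 gene identifiers in all. Each of the 10 was found once. The study sequenced RNA from the cerebellum of 12 mice, 1 library per mouse, to follow an experimental compound called Hit 2 in a mouse model of spinocerebellar ataxia type 1. The model carries an expanded CAG repeat in 1 copy of its own Atxn1 gene (154Q/2Q). The 3 groups were 4 wild-type mice given dimethyl sulfoxide (WT DMSO, libraries 413, 425, 426 and 431), 4 heterozygous mice given dimethyl sulfoxide (Het DMSO, 409, 411, 420 and 429) and 4 heterozygous mice given Hit 2 (Het Hit 2, 410, 421, 422 and 430). Library numbers are the animal numbers of the labels. Every mouse received intraperitoneal injections of dimethyl sulfoxide, from 18 weeks of age, daily for 5 days and, after 2 rest days, for 5 more. Hit 2 was dissolved in that vehicle at 25 mg/ml, and the vehicle stayed below 4 ml/kg. All mice were 20 weeks old at the end, when they were put under urethane and perfused with phosphate-buffered saline. The whole cerebellum was used, the mutant allele is a knock-in present in every cell that uses Atxn1, and the 12 libraries hold no wild-type mice given Hit 2.

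Monoamine transmitters are made by small clusters of neurons whose cell bodies sit in the midbrain and brainstem and whose axons reach most of the brain. Dopamine neurons lie in the substantia nigra and ventral tegmental area, serotonin neurons in the raphe nuclei, and noradrenaline neurons in the locus coeruleus and the lateral tegmentum. The cerebellum receives serotonin and noradrenaline fibres, but the messenger RNAs of Slc6a3, Tph2, Slc6a4, Dbh and Slc6a2 are made in the distant cell bodies. Th is an exception, since Purkinje cells of some cerebellar lobules carry its messenger RNA, and Maoa and Maob are used by many cell types.

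The libraries held 15855751 to 45265719 reads assigned to genes. Levels are given as CPM, the read count of a gene relative to the gene reads of its library after scaling by TMM. Only genes that passed a filter on low counts entered this library size. Library 411, labelled as cerebellum, stood apart in markers of that tissue. Its 5 granule cell markers summed to 44.2 CPM, while the WT DMSO libraries held 3960 to 4482. Its 5 Purkinje cell markers summed to 72.1 CPM, against 1404 to 1585 in the WT DMSO libraries. Library 410 was intermediate for Purkinje markers (589 CPM) and granule markers (2611 CPM). Library 409 had 0.0795% of its gene reads on mitochondrial genes, where the other 11 had 1.85% to 2.81%. In bulk tissue, fewer cells of a type and less RNA per cell cannot be told apart. The labels give each mouse its own number, so the replicates are separate animals.

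The 8 synthesis and transport genes together reached 176 CPM in library 411, with a 95% Poisson interval of 170 to 182. Library 410 followed with 89.0 CPM (84.6 to 93.6), and library 413 with 26.2 CPM (24.3 to 28.1). The other WT DMSO libraries had 24.9 (425), 18.9 (426) and 17.1 CPM (431). The other Het DMSO libraries had 7.34 (409), 11.3 (420) and 8.22 CPM (429), and the other Het Hit 2 libraries 8.45 (421), 4.25 (422) and 15.6 CPM (430). Leaving out Th and Ddc, the 6 remaining genes summed to 91.7 CPM in 411, 61.9 in 410 and 15.0 in 413, and to 3.71 CPM in 430. On that sum 426 (3.32 CPM) and 425 (3.02 CPM) came next after 430, and the other 6 libraries held 0.419 to 1.87 CPM. The intervals cover counting error only, since reads copied by PCR are not independent molecules.

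Each gene was then set against the median of the other 11 libraries, on log2 CPM with a prior count of 2, and called 4-fold higher or lower as a description. Library 410 had 7 of the 10 genes at least 4-fold higher (Ddc, Slc6a3, Slc18a2, Tph2, Slc6a4, Dbh and Slc6a2), where 2.78% of all genes with at least 10 reads in a library were that high. Library 411 had 6 of the 10 (Th, Ddc, Slc6a3, Slc18a2, Tph2 and Slc6a4), beside 6.43% of all genes. Library 413 had 4 (Slc18a2, Slc6a4, Dbh and Slc6a2), beside 0.781%. Library 425 had 2 (Dbh and Slc6a2), beside 0.665%, and library 430 had 1 (Slc6a4), beside 1.19%. No member was 4-fold higher in the other 7 libraries, where the share of all genes was 0.257% (409), 0.0621% (426), 0.585% (429), 0.0931% (431), 0.0976% (420) and 0.0266% each in 421 and 422. In the lower direction, library 422 had 3 members (Th, Slc18a2 and Slc6a4), beside 0.532% of all genes. Library 409 had 2 (Slc18a2 and Slc6a4), beside 7.11%. The libraries 425, 429 and 431 had 1 each, Slc6a4 in every case, beside 0.0621%, 0.12% and 0.568%. The lower calls of Slc6a4 rest on 2 to 4 reads per library, and those of Slc18a2 on 0 (409) and 1 (422). The median behind the Slc6a4 calls was 0.758 CPM for these low libraries, and 0.198 CPM for the libraries high in Slc6a4. No member was 4-fold lower in the other 7, where the share was 3.66% in 411, 0.661% in 420, 0.315% each in 410 and 421, 0.262% in 426 and 0.0443% each in 413 and 430.

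**Figure D1:**
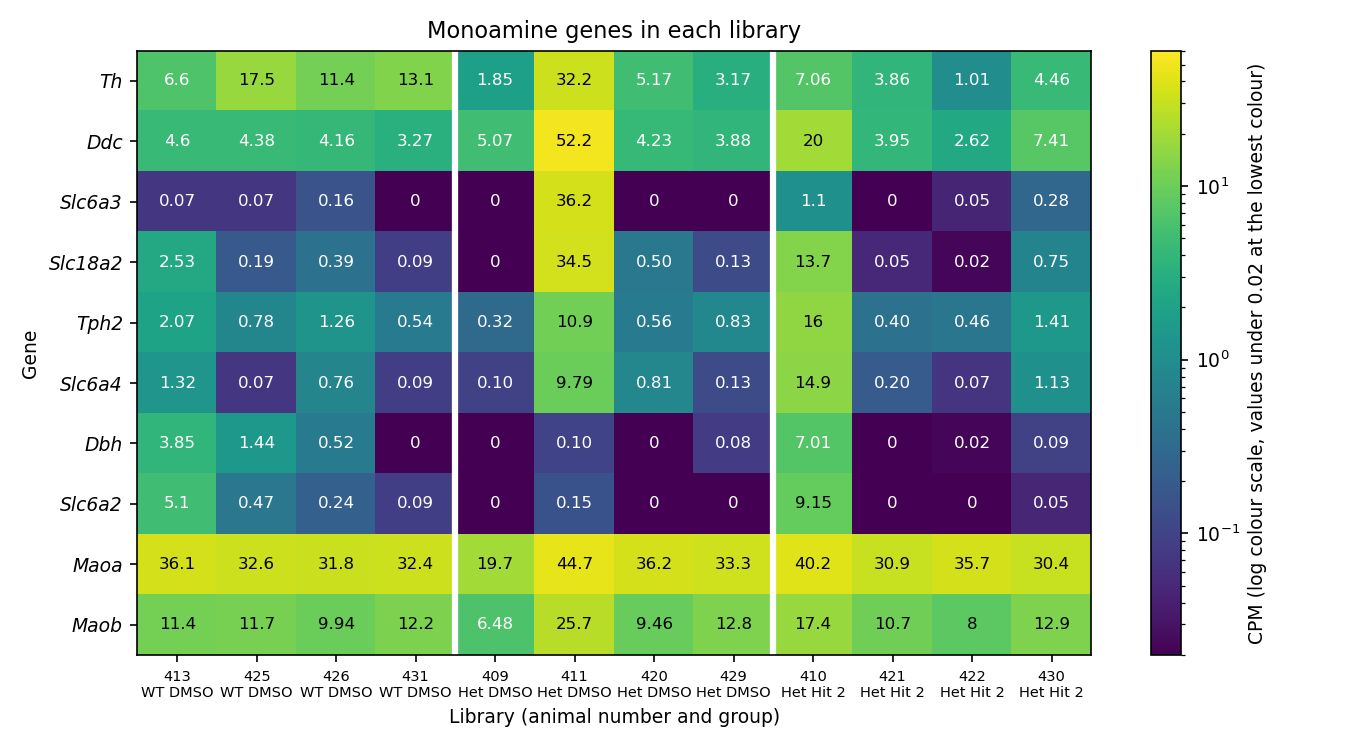
Level of each of the 10 genes (rows) in each of the 12 libraries (columns, by group), in CPM on a log colour scale with the value in each cell. Library 411 is high from Th to Slc6a4 but not for Dbh and Slc6a2 (0.101 and 0.151 CPM), 410 is high for Ddc, Slc18a2, Tph2, Slc6a4, Dbh and Slc6a2, and Maoa and Maob are present throughout.

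Th encodes tyrosine hydroxylase, the rate-limiting enzyme of dopamine and noradrenaline synthesis. Its level in the WT DMSO libraries was 6.60 CPM (413), 17.5 (425), 11.4 (426) and 13.1 (431). The Het DMSO libraries had 1.85 (409), 32.2 (411), 5.17 (420) and 3.17 CPM (429), and the Het Hit 2 libraries 7.06 (410), 3.86 (421), 1.01 (422) and 4.46 CPM (430). Library 411 was the highest of the 12, and the other 3 Het DMSO libraries lay below every WT DMSO library. Among the Het Hit 2 libraries 1 of 4, 410, reached into the WT DMSO range.

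The mean of Th was 12.2 ± 4.50 CPM in WT DMSO (SD, n = 4), 10.6 ± 14.4 in Het DMSO (SD, n = 4) and 4.10 ± 2.48 in Het Hit 2 (SD, n = 4). Without library 411 the Het DMSO mean was 3.39 ± 1.67 CPM (SD, n = 3). In the edgeR fit, the log2 fold change of Th between Het DMSO and WT DMSO was -0.21 ± 0.80 (SE), with an adjusted p of 0.926. Without library 411 it was -1.86, with an adjusted p of 0.620. Between Het Hit 2 and WT DMSO it was -1.58 ± 0.82 (SE), with an edgeR adjusted p of 1.00 and an exact two-sided permutation p of 0.0571 where the smallest possible is 0.0286. An alternative fit with limma that weights libraries by their quality gave -2.14 for this comparison, with an adjusted p of 0.0462. The edgeR fit and every other alternative kept it above the threshold of 0.05. Between Het Hit 2 and Het DMSO it was -1.38 ± 0.82 (SE), with an edgeR adjusted p of 0.898, and 0.25 without library 411 (adjusted p = 0.841).

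Other values also differed between the groups. The summed Purkinje cell markers were 867 to 1080 CPM in the Het DMSO libraries other than 411, below the WT DMSO range of 1404 to 1585, and 589 to 1294 CPM in the Het Hit 2 libraries. Within Het Hit 2 the order was opposite to that of Th, since 410 had the most Th and the lowest Purkinje sum and 422 the least Th and the highest sum. In WT DMSO, 413 had the least Th and the highest sum. In Het DMSO, 411 had the most Th and the lowest sum. Among the other Het DMSO libraries the order was that of Th, with sums of 867 (409), 939 (429) and 1080 CPM (420). Xist, the RNA of the inactive X chromosome, was 1393 CPM in library 425 and 1464 in 426, and at most 0.290 CPM in the other 10, so libraries with high Xist occurred in the WT DMSO group only. The part of either in the Th values was not tested.

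Th also made up a different share of the 8 synthesis and transport genes from library to library. It was 76.2% of their reads in 431, 70.3% in 425 and 60.4% in 426. The share was 25.2% in 413, 18.3% in 411 and 7.94% in 410. In the other 6 libraries it was 23.8% (422), 25.2% (409), 28.6% (430), 38.6% (429), 45.6% (421) and 45.9% (420). A low share of Th therefore occurred both with and without high transporter genes.

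**Figure D2:**
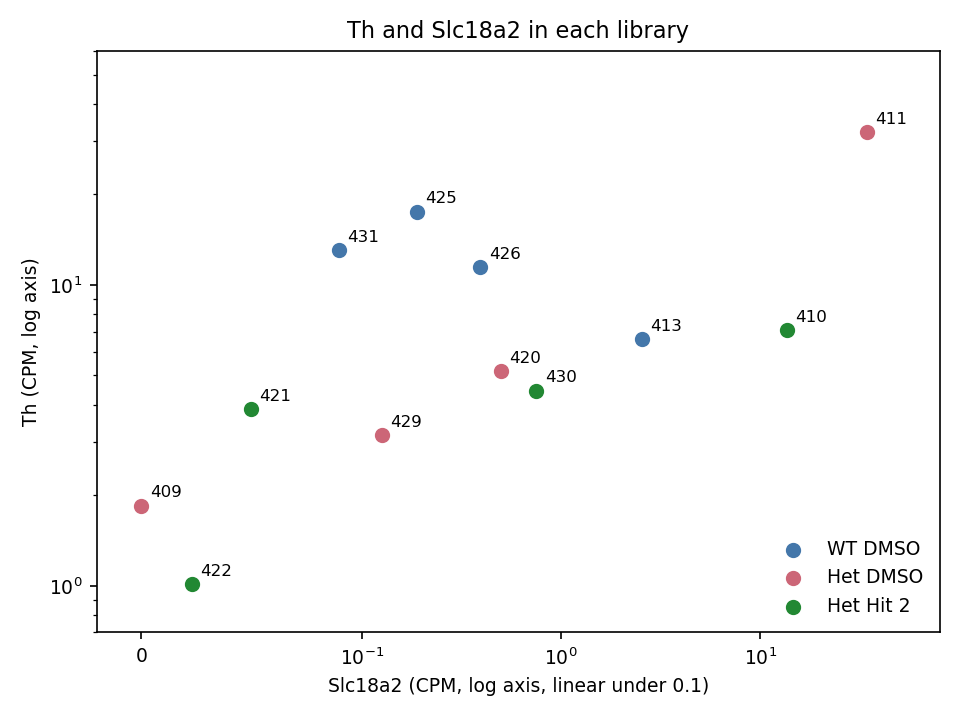
Level of Th (vertical, CPM, log axis) against Slc18a2 (horizontal, CPM, log axis that is linear below 0.1) with 1 point per library, coloured by group. Library 411 is high on both (32.2 and 34.5 CPM), 410 is high on Slc18a2 alone (13.7 CPM), and 425, 426 and 431 have 11.4 to 17.5 CPM of Th with less than 0.5 CPM of Slc18a2.

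Ddc encodes aromatic L-amino acid decarboxylase, which makes dopamine from L-DOPA and serotonin from 5-hydroxytryptophan. Its level in the WT DMSO libraries was 4.60 (413), 4.38 (425), 4.16 (426) and 3.27 CPM (431). In Het DMSO it was 5.07 (409), 52.2 (411), 4.23 (420) and 3.88 CPM (429). The Het Hit 2 libraries had 20.0 (410), 3.95 (421), 2.62 (422) and 7.41 CPM (430). Ddc was thus even across 9 libraries and high in 411 and 410, with 430 above the rest.

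Slc6a3 encodes the dopamine transporter, the gene among these most restricted to dopamine neurons. It had 2, 3, 6 and 0 reads in the WT DMSO libraries 413, 425, 426 and 431. In Het DMSO it had 0 (409), 718 (411), 0 (420) and 0 reads (429), and in Het Hit 2 19 (410), 0 (421), 2 (422) and 6 reads (430). Library 411 alone held 718 of the 756 reads of Slc6a3 in the series, at 36.2 CPM. Library 410 had 1.10 CPM and 430 had 0.281 CPM, and the highest level in the other 9 was 0.157 CPM (426). A count of 0 allows up to 0.0739 CPM in library 409 and up to 0.187 CPM in 420.

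Slc18a2 encodes the vesicular monoamine transporter VMAT2, which loads dopamine, serotonin and noradrenaline alike into synaptic vesicles. The WT DMSO libraries had 2.53 (413), 0.188 (425), 0.392 (426) and 0.0895 CPM (431). Het DMSO libraries had 0 (409), 34.5 (411), 0.498 (420) and 0.125 CPM (429), and the Het Hit 2 libraries 13.7 (410), 0.0494 (421), 0.0230 (422) and 0.751 CPM (430). The 4 highest libraries were 411, 410, 413 and 430, in that order, and they came from all 3 groups. A long non-coding gene, Gm29261, lies on the opposite strand at this locus and was itself counted at 0 to 18 reads per library. Reads opposite to the exons of Slc18a2 came to 2109 over the 12 libraries, beside 1045 on the strand of Slc18a2, and reached 9.62 CPM in library 430. Counted without regard to strand, the difference of library 410 from the median of the others was 1.34 on the log2 scale instead of 5.72, and that of library 413 was 0.34 instead of 3.32. The log2 fold change of Slc18a2 in Het DMSO against WT DMSO was 0.88 on unstranded counts and 3.46 on the strand of the gene.

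The stretches just before the annotated starts of these 4 genes are shown because the genes were high together in library 411. They are RefSeq promoter windows of the build GRCm38.p6, available for 8 of the 10 genes, and each is cut here to the 120 bases before the start, with 4 bases more for Slc18a2. Ddc has 2 windows at different starts, and the one with a match is shown, while the other held no match to either motif searched. The build named in the submitters' processing notes for these libraries is GRCm39, so the coordinates are not those of the counts. Capitals mark a cyclic AMP response element (TGACGTCA, which is its own reverse complement) in Th and Slc18a2, and the element AAAGGTCA, known to be bound by Nr4a2 and its relatives, on the reverse strand in Ddc. Slc6a3 held no match to either and is in lower case throughout.
Th, chr7:142899996-142900115, minus strand: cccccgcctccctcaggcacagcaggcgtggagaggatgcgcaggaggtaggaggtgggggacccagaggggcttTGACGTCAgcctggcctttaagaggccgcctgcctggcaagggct
Slc18a2, chr19:59260758-59260881, plus strand: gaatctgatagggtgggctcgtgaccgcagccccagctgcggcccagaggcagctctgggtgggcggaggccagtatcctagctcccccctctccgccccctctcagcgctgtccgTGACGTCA
Ddc, chr11:11898145-11898264, minus strand: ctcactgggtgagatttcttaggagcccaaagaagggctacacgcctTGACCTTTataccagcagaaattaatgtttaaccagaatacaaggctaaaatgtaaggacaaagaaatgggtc
Slc6a3, chr13:73536627-73536746, plus strand: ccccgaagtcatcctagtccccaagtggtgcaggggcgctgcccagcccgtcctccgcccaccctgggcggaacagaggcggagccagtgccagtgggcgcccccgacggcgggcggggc
The cyclic AMP response element lies 45 to 38 bases before the start in Th and spans the start in Slc18a2. Over the full windows, searched on both strands, TGACGTCA was found in those of 2 of the 8 members and in those of 549 of all 27025 genes with one (2.03%). AAAGGTCA was found in 1 of the 8, Ddc, 73 to 66 bases before the start, and in the windows of 460 of all 27025 genes (1.70%). The motifs do not overlap each other in these windows. A match is a run of letters and says nothing on binding in these animals.

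Tph2 encodes the neuronal tryptophan hydroxylase, which starts serotonin synthesis in raphe neurons. The WT DMSO libraries had 2.07 (413), 0.777 (425), 1.26 (426) and 0.537 CPM (431). The Het DMSO libraries had 0.320 (409), 10.9 (411), 0.560 (420) and 0.834 CPM (429), and the Het Hit 2 libraries 16.0 (410), 0.395 (421), 0.460 (422) and 1.41 CPM (430). Tph2 was highest in 410, then 411, with 413 and 430 next and within 1 CPM of the wild-type library 426.

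Slc6a4 encodes the serotonin transporter, which returns serotonin to the neurons that released it. Its level was 1.32 (413), 0.0707 (425), 0.758 (426) and 0.0895 CPM (431) in the WT DMSO libraries. It was 0.0985 (409), 9.79 (411), 0.809 (420) and 0.125 CPM (429) in the Het DMSO libraries, and 14.9 (410), 0.198 (421), 0.0690 (422) and 1.13 CPM (430) in the Het Hit 2 libraries. The order 410, 411, 413, 430 at the top was that of Tph2.

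Dbh encodes dopamine beta-hydroxylase, which turns dopamine into noradrenaline inside vesicles. The WT DMSO libraries had 3.85 (413), 1.44 (425), 0.523 (426) and 0 CPM (431). The Het DMSO libraries had 0 (409), 0.101 (411), 0 (420) and 0.0834 CPM (429), and the Het Hit 2 libraries 7.01 (410), 0 (421), 0.0230 (422) and 0.0938 CPM (430). Library 411, the highest for Th, Ddc, Slc6a3 and Slc18a2, held 2 reads of Dbh, fewer than 410 (121 reads), 413 (108), 425 (61) and 426 (20).

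Slc6a2 encodes the noradrenaline transporter. It was 5.10 (413), 0.471 (425), 0.235 (426) and 0.0895 CPM (431) in the WT DMSO libraries. It was 0 (409), 0.151 (411), 0 (420) and 0 CPM (429) in the Het DMSO libraries, and 9.15 (410), 0 (421), 0 (422) and 0.0469 CPM (430) in the Het Hit 2 libraries. Libraries 410 (158 reads) and 413 (143 reads) held most of its reads, as they did for Dbh, and 425 came next for both genes.

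Each of the 3 plasma membrane transporters is used mainly by 1 class of monoamine neuron, and their reads were compared within each library. In library 411, which had 915 reads of the 3 transporters, 78.5% were Slc6a3 (95% Wilson interval 75.7 to 81.0), 21.2% were Slc6a4 (18.7 to 24.0) and 0.328% were Slc6a2 (0.112 to 0.960). In library 410, with 435 reads, Slc6a4 made up 59.3% (54.6 to 63.8), Slc6a2 36.3% (31.9 to 40.9) and Slc6a3 4.37% (2.81 to 6.72). In library 413, with 182 reads, Slc6a2 made up 78.6% (72.1 to 83.9), Slc6a4 20.3% (15.1 to 26.8) and Slc6a3 1.10%. The dopamine transporter thus led in 411, the serotonin transporter in 410 and the noradrenaline transporter in 413, with intervals of the leading gene that do not overlap those of the same gene in the other 2 libraries. Library 430 had 31 such reads, of which 77.4% were Slc6a4 (60.2 to 88.6). Library 426 had 44 reads with Slc6a4 at 65.9%, and library 425 had 26 reads with Slc6a2 at 76.9% (58.0 to 89.0). The other 6 libraries had 3 to 13 reads each, too few to give a share.

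**Figure D3:**
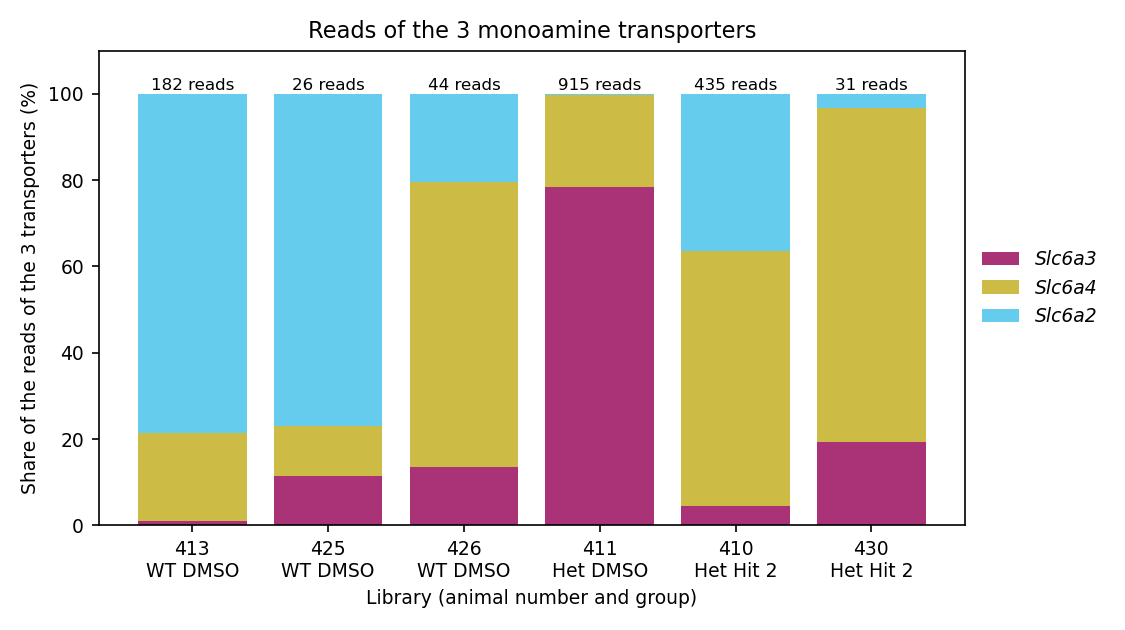
Share of the reads of Slc6a3, Slc6a4 and Slc6a2 (vertical, percent, stacked to 100%) in the 6 libraries with more than 13 of them (horizontal, number of reads above each bar). Slc6a3 fills most of library 411 (78.5%), Slc6a4 leads in 410 (59.3%) and Slc6a2 in 413 (78.6%).

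Maoa and Maob encode the monoamine oxidases of the outer mitochondrial membrane, which break monoamines down. Maoa was 36.1 (413), 32.6 (425), 31.8 (426) and 32.4 CPM (431) in the WT DMSO libraries. It was 19.7 (409), 44.7 (411), 36.2 (420) and 33.3 CPM (429) in the Het DMSO libraries, and 40.2 (410), 30.9 (421), 35.7 (422) and 30.4 CPM (430) in the Het Hit 2 libraries. The range over the 12 libraries was narrow next to that of the synthesis and transport genes, with 411 highest and 409 lowest.

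Maob was 11.4 (413), 11.7 (425), 9.94 (426) and 12.2 CPM (431) in the WT DMSO libraries. The Het DMSO libraries had 6.48 (409), 25.7 (411), 9.46 (420) and 12.8 CPM (429), and the Het Hit 2 libraries 17.4 (410), 10.7 (421), 8.00 (422) and 12.9 CPM (430). Maob was again highest in 411 and lowest in 409, and 410 was second for both oxidases. In 409 the log2 difference from the median of the others was -0.75 for Maoa and -0.85 for Maob, beside its low share of mitochondrial reads, whose part in these values was not tested.

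To compare levels between genes, CPM was divided by the length of each gene's merged exons in kilobases. In library 411, Th had 13.6 CPM per kilobase, Ddc 11.7 and Slc6a3 10.5, near the 10.7 of Maoa and the 9.21 of Maob. Slc18a2 followed with 6.61, Tph2 with 3.77 and Slc6a4 with 2.16, whereas Dbh had 0.0375 and Slc6a2 0.0241 CPM per kilobase. In library 410 the serotonin enzyme Tph2 led the synthesis and transport genes with 5.57 CPM per kilobase, followed by Ddc (4.49), Slc6a4 (3.30) and Th (2.99). Slc18a2 (2.62) and Dbh (2.60) were level there, and Slc6a2 (1.45) and Slc6a3 (0.318) came last.

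The study's group comparisons were read from 1 edgeR fit on all genes. A filter on low counts kept 19378 genes and 8 of the 10 members, leaving out Slc6a3 and Slc6a2. In Het DMSO against WT DMSO, 0 of the 8 passed an adjusted p of 0.05, beside 0.00516% of all genes tested. Unadjusted p was under 0.05 for 2 of them, beside 7.11% of all genes tested, Ddc with a log2 difference of 1.99 (SE 0.88) and Dbh with one of -4.97 (SE 2.11), both at an edgeR adjusted p of 0.616. Without library 411 the value of Ddc was 0.12. Slc18a2 (3.46, SE 2.12, edgeR adjusted p = 0.618), Slc6a4 (2.25, SE 1.70, adjusted p = 0.637) and Tph2 (1.42, SE 1.30, adjusted p = 0.675) had higher means in Het DMSO. Without library 411 these 3 were -2.22, -0.88 and -1.03. Maoa differed by 0.01 (SE 0.20, edgeR adjusted p = 0.987) and Maob by 0.26 (SE 0.36, adjusted p = 0.774).

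When Het Hit 2 was set against Het DMSO, 0 of the 8 members passed, beside 0% of all genes tested, and 1 had an unadjusted p under 0.05, beside 1.55% of all genes. This was Dbh, with a log2 difference of 5.22 (SE 2.13) and an edgeR adjusted p of 0.898, and its value without library 410 was -0.20. Tph2 was at 0.54 (SE 1.26, edgeR adjusted p = 0.926), which became 2.96 without 411 and -2.05 without 410. Slc6a4 at 0.59 (SE 1.59) and Slc18a2 at -1.30 (SE 1.94) turned in the same way, with Slc6a4 between -2.57 and 3.69 and Slc18a2 between -5.08 and 4.36 as those libraries were left out. Maoa differed by 0.04 (SE 0.20) and Maob by -0.15 (SE 0.37).

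In Het Hit 2 against WT DMSO, 0 of the 8 members passed, beside 0.00516% of all genes tested, and 0 had an unadjusted p under 0.05, beside 1.71% of all genes. Slc6a4 had the largest difference among the 8, 2.84 (SE 1.72, edgeR adjusted p = 1.00), which was -0.34 without library 410. DESeq2 called 0 members in each of the 3 comparisons, and limma with library weights called 1, Th in this comparison. Fitted without the filter on low counts, Slc6a3 and Slc6a2 did not pass either (lowest adjusted p = 0.697). The groups overlapped for all 10 members in all 3 comparisons, where 4.39%, 1.03% and 6.32% of tested genes had groups that did not overlap, in the order given here.

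**Figure D4:**
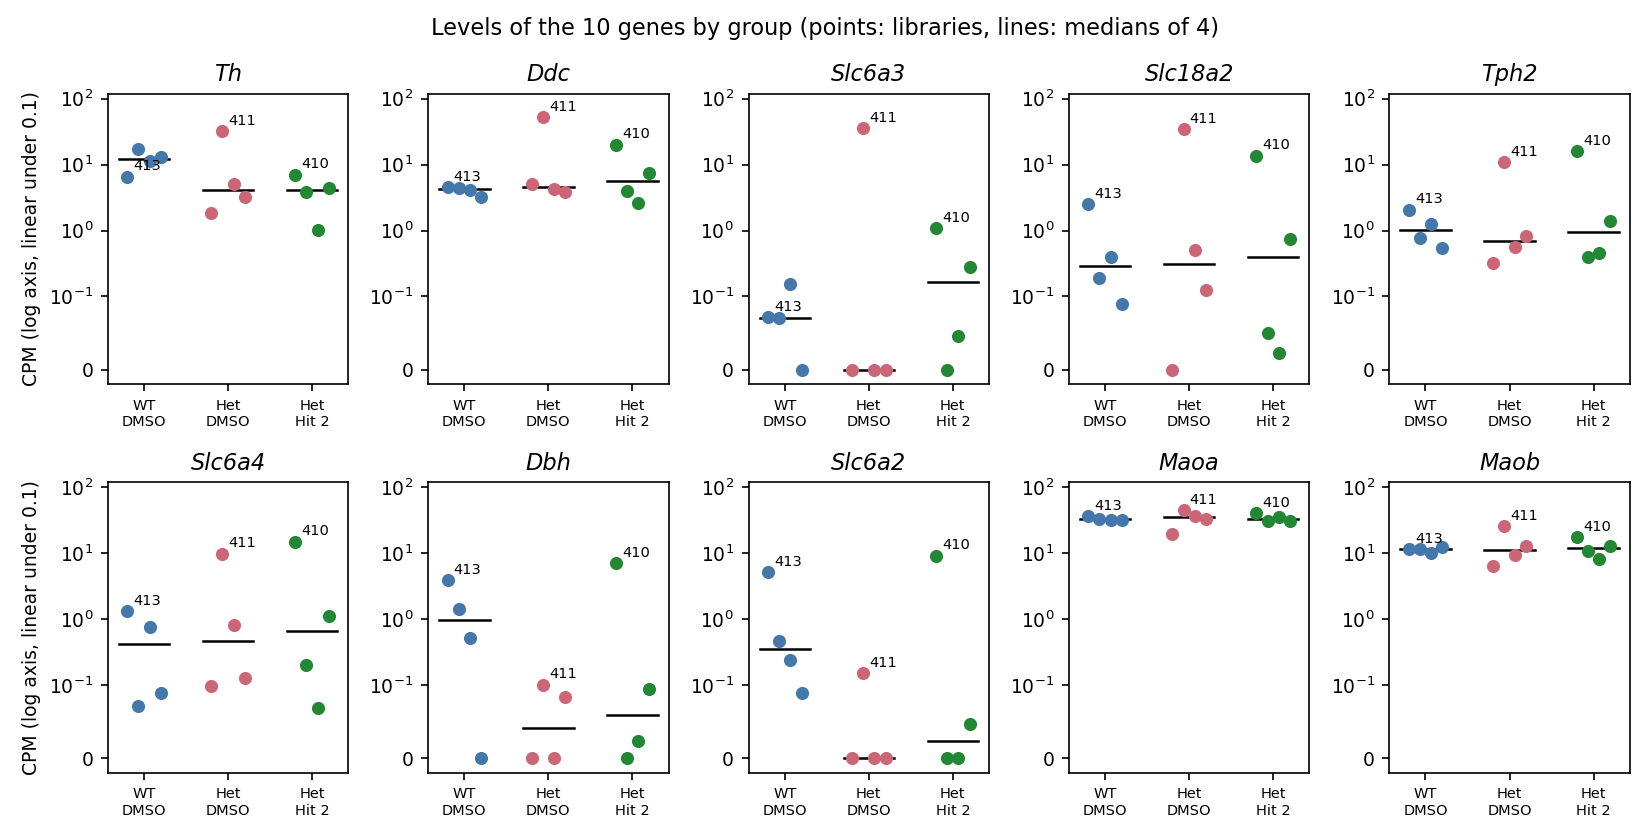
Level of each of the 10 genes in the 12 libraries by group, in CPM on a log axis that is linear below 0.1, with 1 point per library and a line at the group median. The single high points are library 411 in Het DMSO for Th to Slc6a4, library 410 in Het Hit 2 for Ddc to Slc6a2, and library 413 in WT DMSO for Slc18a2 and Slc6a2.

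Another 39 genes of the monoamine pathway were read in the same fit. They make the cofactor tetrahydrobiopterin, convert or carry monoamines, or encode dopamine, serotonin and noradrenaline receptors. The filter kept 32 of them, and 0 passed the test in any of the 3 comparisons. Unadjusted p was under 0.05 for 2, 2 and 1 of the 32, beside 7.11%, 1.55% and 1.71% of all genes, which were Spr and Aldh2 in the first 2 comparisons and Slc18a1 in Het Hit 2 against WT DMSO. Their median log2 fold change was 0.53, -0.46 and 0.17, beside 0.05, -0.04 and 0.02 over all genes tested. Groups did not overlap for 1, 0 and 1 of the 39, beside 4.39%, 1.03% and 6.32% of tested genes. The gene was Drd3 each time, at an exact permutation p of 0.0286, the smallest possible. Drd3 had 1 to 36 reads per library and was left out by the filter.

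By library, 17 of the 39 pathway genes were at least 4-fold higher in 411 than the median of the others and 3 were lower, among them Drd4 and Adra2b. Library 410 had 13 higher, 430 had 4, 413 had 3, 425 had 2, 429 had 1 and the other 6 had 0. Lower genes numbered 4 in 420, 3 each in 409 and 422, 1 each in 421, 426, 429 and 431, and 0 in 410, 413, 425 and 430. Of all genes with at least 10 reads in a library, 6.43% were higher in 411, 2.78% in 410 and 1.19% in 430. The share was 0.781% in 413, 0.665% in 425 and 0.585% in 429. Lower were 7.11% of all genes in 409, 3.66% in 411, 0.661% in 420, 0.568% in 431, 0.532% in 422, 0.315% in 421, 0.262% in 426 and 0.12% in 429. Slc10a4, a vesicular protein of monoamine and cholinergic neurons, followed the members, with 11.1 CPM in 411, 7.18 in 410, 1.46 in 413, 0.563 in 430 and 0.518 in 425, and at most 0.209 CPM elsewhere. Some receptor genes were also highest in these libraries, and others were not. Drd2, which dopamine neurons carry, was 21.1 CPM in 411, 6.49 in 410 and 3.28 in 430, and Htr1a, which serotonin neurons carry, was 18.9, 5.27 and 2.35 CPM in the same libraries. Htr1b was 19.5 CPM in 413, 18.9 in 411 and 16.7 in 410, within a range of 10.8 to 19.5, and Adra2a was 23.2 CPM in 411, 17.4 in 409 and 9.05 in 430. Htr2c, a receptor that the choroid plexus also expresses, was 126 CPM in 411 and 66.4 in 410.

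Regulators of monoamine neurons and of the midbrain were read from marker lists. Of 8 dopamine neuron markers, 6 were at least 4-fold higher in 411 than the median of the others, and 3 in 410, 2 in 425, 1 in 413 and 0 in 430. Among all genes with at least 10 reads in a library, 6.43% were that high in 411 and 2.78% in 410. The share was 0.665% in 425, 0.781% in 413 and 1.19% in 430. The marker lists have no such floor, and Pitx3 counts in 411 on 7 reads. The marker in 413, and 1 of those in 425, 410 and 411, was Lmx1b, a factor of both dopamine and serotonin neurons that is on both lists (9.69 CPM in 411, 5.73 in 410, 2.87 in 425 and 2.28 in 413). Ntsr1, a neurotensin receptor of dopamine neurons and the gene of that list that differed most in 411, was 11.2 CPM there and at most 2.14 elsewhere. Foxa1 and Foxa2, transcription factors of the ventral midbrain, were 5.35 and 3.43 CPM in 411, with Foxa1 at 0.463 in 410. Pitx3, a factor of dopamine neurons, had 7 reads in 411 and 4 in 425. Nr4a2, also used by dopamine neurons but expressed in other neurons too, was 18.1 CPM in 411, inside the 10.2 to 38.3 of the series. Chrna6, a nicotinic receptor subunit of dopamine neurons, was 8.33 CPM in 411.

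Of 6 serotonin neuron markers, 4 were at least 4-fold higher in 410, 3 in 411, 2 in 413 and 1 each in 425 and 430. Of all genes, 2.78% were that high in 410, 6.43% in 411, 0.781% in 413, 0.665% in 425 and 1.19% in 430. Lmx1b is counted again here in 410, 411, 413 and 425, where it was the only one of 425. One marker of that list, En2, which cerebellar neurons also express, was lower in 411 (12.9 CPM) than its range of 69.3 to 194 in the others, and the sum of the list was lowest in 411 (70.4 CPM) and next lowest in 410 (96.4). Fev, a transcription factor of raphe neurons, had 15 reads in 410 and at most 5 in any other library. Gata3, used by serotonin neurons and by inhibitory neurons of the midbrain, was 31.1 CPM in 411, 9.03 in 410, 3.38 in 430 and 1.32 in 413, and at most 0.292 elsewhere. Of 4 noradrenaline neuron markers, 3 were at least 4-fold higher in 410, 2 in 425 and 0 in 411, 413 and 430. The shares of all genes are those given above, and Phox2a counts in 410 on 4 reads. Gal, the gene of that list that differed most in 411, was 0.808 CPM there, inside the range of 0 to 2.10 in the others. Chat, the acetylcholine-synthesising enzyme, was 4.63 CPM in 410, 1.97 in 411, 1.43 in 413 and 0.801 in 425. Slc5a7, the choline transporter, was 11.4 CPM in 410 and 6.97 in 411.

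Of 6 other midbrain markers, 4 were at least 4-fold higher in 411, 3 each in 410 and 430 and 1 in 413, beside the same shares of all genes. Pax7 and Pou4f1, factors of the dorsal and tegmental midbrain, were highest in 411 (19.5 and 21.7 CPM). They were 4.22 and 4.08 CPM in 430, 4.40 and 1.10 in 410, and 2.28 and 0.714 in 413. Outside these 4 libraries Pax7 was at most 0.0690 CPM. Otx2, of the same list, was highest in 429 (23.5 CPM) and 425 (22.9), with 17.4 in 411 and 7.35 in 413, and Ucn was at 0 in all 4. The 7 hindbrain Hox genes summed to 18.1 CPM in 425 and to at most 0.521 in any other library. The 4 mast cell markers, a further cell type that expresses Slc18a2, were all at 0 in 411 and summed to 0.232 CPM in 410 (4 reads, all of Tpsb2), the highest of the 12.

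Cerebellar markers were read beside these. The markers of 411 that were highest were Etv1 (36.6 CPM), Calb1 (35.6), Slc1a6 (23.1) and Car8 (12.4). Gabra6, a granule cell receptor subunit, was 0.606 CPM in 411 and 227 to 388 in the other 11. Fat2, also of granule cells, was 2.57 CPM in 411 and 1452 to 4022 in the others. Pcp2, of Purkinje cells, was 0.555 CPM in 411 and 70.2 to 209 in the others. Gdf10, a marker of Bergmann glia, was 1.62 CPM in 411 and 41.6 to 176 in the others, while the astroglial Aldh1l1 was 68.0 CPM, inside the others' range of 49.8 to 79.0. The libraries 410 and 430, with 2611 and 2779 CPM of summed granule markers, were also below the WT DMSO libraries, as were 421 (3706 CPM) and 429 (3852 CPM), while 413 lay inside the WT DMSO range that it helps to set. Library 411 thus combined the highest levels of Th, Ddc, Slc6a3, Slc18a2, Foxa1 and Pax7 with low granule and Purkinje cell markers. These markers were each at least 4-fold below the median of the others (5 of 5 and 5 of 5), beside 3.66% of all genes. En1, of the dopamine neuron list, was 9.59 CPM in 411, below 430 (14.9) and 421 (14.1). Nr4a2 and Otx2 in 411 lay inside the range of the other libraries. In 410, 413 and 430, Slc18a2, Tph2, Slc6a4, Gata3 and Pax7 stood above the 8 libraries other than these and 411, while Th did not, and the summed Purkinje markers were 589 CPM or more. Which tissue gave these reads was not tested.

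**Figure D5:**
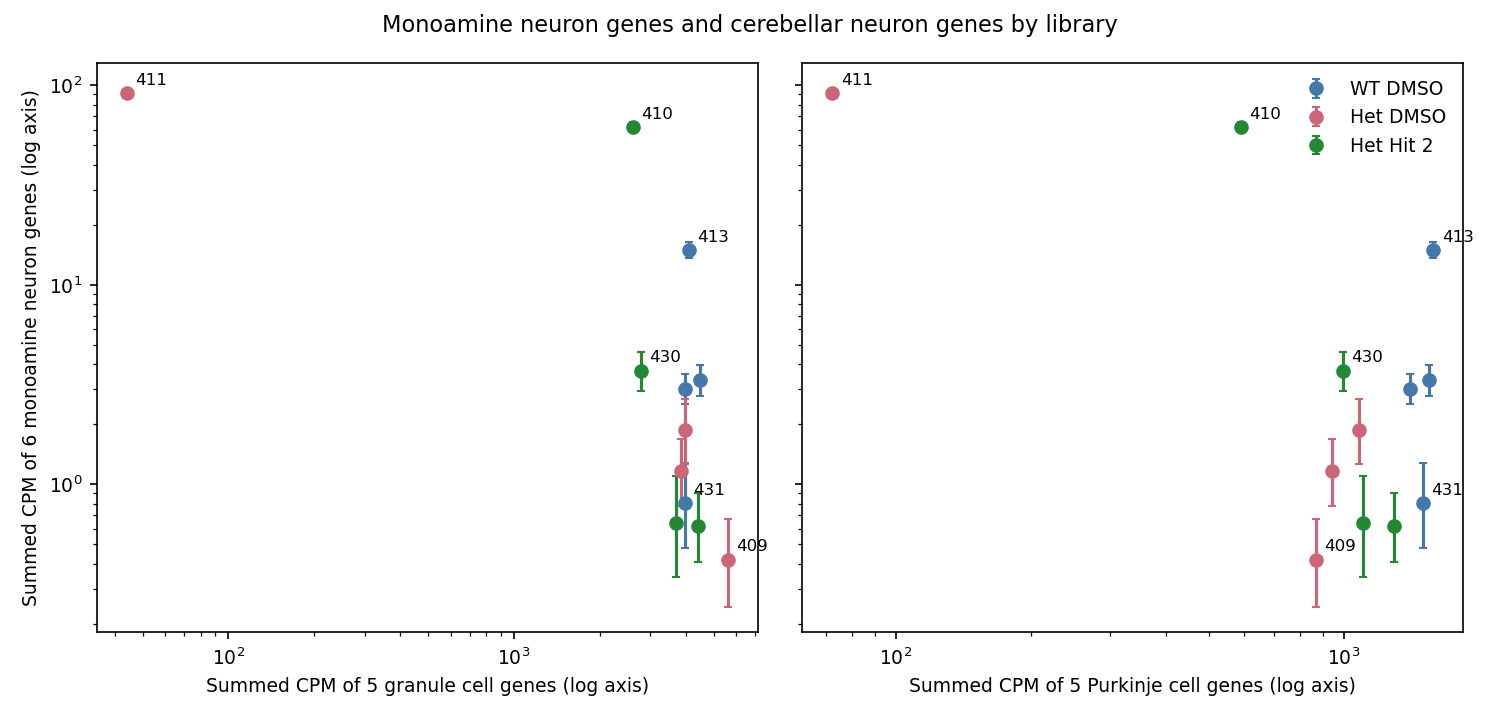
Summed level of 6 genes (Slc6a3, Slc18a2, Tph2, Slc6a4, Dbh and Slc6a2, vertical, CPM, log axis, with 95% Poisson intervals) against the summed level of 5 granule cell markers (left) and 5 Purkinje cell markers (right), both in CPM on a log axis, 1 point per library. Library 411 lies at the upper left with 91.7 CPM of the 6 genes, 410 lies between it and the rest with 61.9 CPM, and 413 has 15.0 CPM at the marker levels of the WT DMSO group.

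The genes whose levels ran most like those of a member were found by Pearson's r of log2 CPM over the 12 libraries, as a description, since the libraries share tissue makeup and a few libraries span most of the range. For Th these were Eda (r = 0.952), Ccpg1os (0.908), Amigo2 (0.887), Sparc (0.885) and Tcf20 (0.885), and without library 411 their r was 0.831 to 0.936. For Tph2 the first was another member, Slc18a2 (r = 0.958, and 0.943 without 411), followed by Nkain2 (0.949), Sh3bgrl3 (0.946), Ttn (0.945) and Pappa2 (0.945). For Dbh they were Llph (r = 0.900), Pdlim3 (0.852), Pdyn (0.827), Chat (0.813) and 3110083C13Rik (0.796), all highest in library 410. None of the 5 genes most like Th was among those of Tph2 or Dbh.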

How the data were processed

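RNA of 12 cerebella was sequenced from directional libraries depleted of ribosomal RNA, made from 500 ng of RNA with 13 amplification cycles and read as pairs of 100 bases, per the labels' protocols. The submitters' processing notes name STAR 2.7.10a, FastQC 0.11.9 and the builds GRCm39 and mm39, without their roles. The annotation release is not given in the sources used here. The deposited values are raw read counts per gene, not normalized by the authors, in the layout of STAR's gene counts, per the file headers. The reverse-strand column was used, since 5.21% to 6.47% of gene reads were on the other strand. Reads not assigned to a gene (44.7% to 54.6% of a library) stayed out of library sizes and tests.

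Of 55401 Ensembl identifiers, 55141 took a symbol from GENCODE M21 and 260 did not. Groups came from the labels. Counts were tested with edgeR 4.0.16 in R 4.3.3: filterByExpr, TMM factors, 1 quasi-likelihood fit over all 12 libraries with 1 coefficient per group, two-sided tests, and Benjamini-Hochberg adjustment over all 19378 genes at a threshold of 0.05. Standard errors were derived from the F statistic. The script was tested on simulated data. Exact permutation tests enumerated the 70 assignments of 8 libraries to groups, on log2 CPM (prior count 2). Poisson intervals of single libraries and Wilson intervals of shares are at 95%, and a count of 0 was taken to allow 3 reads.

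Alternatives were DESeq2 1.42.0, RLE factors, no filter on low counts, unstranded counts, CPM without TMM, a fit of only the groups compared, limma 3.58.1 with library quality weights, each library left out, and 2 sets of libraries left out together. The members, the 39 pathway genes and the marker lists were chosen with earlier results of these data known. All 10 members are named, with genes of the lists that differed most or least in library 411, further genes of the lists picked after their values were seen, and the 5 genes most like Th, Tph2 and Dbh by Pearson's r. The expanded allele itself was not analysed here, and the other genes of the lists are not reported here.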

Additional observations from a re-analysis of the deposited data

Results flagged for a closer look

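In each group of 4, the highest or lowest library was set against its nearest neighbour, relative to the group's range. Of 30 groups checked (10 genes in 3 groups), 14 held a library that stood out in this way, where the threshold used is set so that chance gives about 1 in 20 groups. That rate is no yardstick for the 14, since the genes share libraries, were chosen with earlier results known, and in 2 groups (Slc6a3 and Slc6a2 in Het DMSO) had 3 libraries at 0.

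Library 411 stood out 7 times within Het DMSO. Its levels were 32.2 CPM for Th (next highest 5.17), 52.2 for Ddc (5.07), 36.2 for Slc6a3 (0) and 34.5 for Slc18a2 (0.498). It also stood out for Tph2 at 10.9 CPM (next 0.834), Slc6a4 at 9.79 (0.809) and Slc6a2 at 0.151 (0), the last of which rests on 3 reads.

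Library 410 stood out 5 times within Het Hit 2. Its levels were 13.7 CPM for Slc18a2 (next 0.751), 16.0 for Tph2 (1.41), 14.9 for Slc6a4 (1.13), 7.01 for Dbh (0.0938) and 9.15 for Slc6a2 (0.0469). Library 413 stood out 2 times within WT DMSO, with 2.53 CPM for Slc18a2 (next 0.392) and 5.10 for Slc6a2 (0.471).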

How the results depend on the processing

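No member and no pathway gene passed the threshold under any alternative, apart from 1 member (Th, -2.14, adjusted p = 0.0462) in Het Hit 2 against WT DMSO under limma with library quality weights, where the cause was not tested. DESeq2, RLE factors, the fit of only the groups compared and unstranded counts left the direction as it was for every member that passed the filter in those fits, though unstranded counts moved Slc18a2 in Het DMSO against WT DMSO from 3.46 to 0.88, in Het Hit 2 against Het DMSO from -1.30 to -0.36 and in Het Hit 2 against WT DMSO from 2.16 to 0.52. All log2 fold changes here are of members that did not pass the test. Without the filter on low counts, Maoa was -0.0191 in Het DMSO against WT DMSO.

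With limma weights the direction turned in Het DMSO against WT DMSO for Slc18a2 (-0.40) and Tph2 (-0.45), in Het Hit 2 against Het DMSO for Ddc (0.0258), Tph2 (-0.12), Slc6a4 (-0.14) and Maoa (-0.0832), and in Het Hit 2 against WT DMSO for Slc18a2 (-1.42), Tph2 (-0.57), Dbh (-3.59), Maoa (-0.0130) and Maob (-0.0774). Without libraries 409 and 411 it turned in Het DMSO against WT DMSO for Ddc (-0.0320), Slc18a2 (-1.44), Tph2 (-0.72), Slc6a4 (-0.37) and Maob (-0.0296), and in Het Hit 2 against Het DMSO for Ddc (1.05), Slc18a2 (3.58), Maoa (-0.0213) and Maob (0.12). Without libraries 410, 411, 413 and 430 it turned in Het DMSO against WT DMSO for Slc18a2 (-0.43), Tph2 (-0.61), Slc6a4 (-0.0414), Maoa (-0.11) and Maob (-0.23). It turned in Het Hit 2 against Het DMSO for Tph2 (-0.39), Slc6a4 (-1.33) and Dbh (-0.64), and in Het Hit 2 against WT DMSO for Ddc (-0.28), Slc18a2 (-2.71), Tph2 (-1.01), Slc6a4 (-1.38), Dbh (-5.15) and Maob (-0.28).

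Leaving out 1 library at a time gave these ranges where the direction turned. In Het DMSO against WT DMSO, Th ran from -1.86 to 0.14, Slc18a2 from -2.22 to 5.20, Tph2 from -1.03 to 1.84, Slc6a4 from -0.88 to 3.07, Maoa from -0.15 to 0.19 and Maob from -0.23 to 0.49, each lowest without 411. In Het Hit 2 against Het DMSO, Th ran from -1.77 to 0.25, Ddc from -1.80 to 0.90, Slc18a2 from -5.08 to 4.36, Tph2 from -2.05 to 2.96, Slc6a4 from -2.57 to 3.69, Dbh from -0.20 to 5.80, Maoa from -0.15 to 0.19 and Maob from -0.39 to 0.33, each highest without 411. In Het Hit 2 against WT DMSO, Slc18a2 ran from -1.64 to 3.91, Tph2 from -0.65 to 2.38, Slc6a4 from -0.34 to 3.65, Dbh from -5.17 to 1.36, Maoa from -0.0470 to 0.0914 and Maob from -0.12 to 0.27, each lowest without 410.

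No paired analysis was possible because no animal number recurs between groups. Counts of Slc6a3 and Slc6a2 were 0 to 20 reads in most libraries, so small differences among those libraries were not detectable at this depth.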

Other observations

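Reads opposite to the exons of Slc18a2 ran from 1.65 CPM in library 409 to 9.62 CPM in library 430, and 411, which had 34.5 CPM of Slc18a2 itself, had 7.22 CPM of them. The antisense gene Gm29261 was itself counted at 0 to 18 reads per library and was highest in 411 (0.909 CPM) and 430 (0.751 CPM).

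Library 425 combined Dbh (1.44 CPM) and Slc6a2 (0.471 CPM), the third highest of the series for both, with hindbrain Hox genes that were near 0 in the other libraries. Among them Hoxb5 was 5.91 CPM and Hoxa5 4.62 CPM there. All 7 hindbrain Hox genes were at least 4-fold higher in 425 than the median of the others, and 0 of the 7 in 410, 411, 413 and 430. Of all genes, 0.665% were that high in 425, 2.78% in 410, 6.43% in 411, 0.781% in 413 and 1.19% in 430. Whether these Hox reads and the noradrenaline genes come from the same cells was not tested.

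Choroid plexus markers, summed over 4 genes, ran from 16.1 to 1019 CPM within WT DMSO, from 14.3 to 1815 within Het DMSO and from 7.79 to 884.7 within Het Hit 2, so this neighbour of the cerebellum varied within every group. All 4 were at least 4-fold higher in 429 (1815 CPM), whose 8 synthesis and transport genes summed to 8.22 CPM. Of the 4, 3 were that high in 410, 413 and 425, 2 in 411 and 0 in the other 7. The share of all genes that high was 0.585% in 429, 2.78% in 410, 0.781% in 413, 0.665% in 425 and 6.43% in 411.

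Ttn, the gene of the muscle protein titin, was among the genes most like Tph2 and reached 191 CPM in library 410.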
